A study of Gallus gallus with 4 samples.

Results

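At embryonic day 13 (E13), 6737 accessible regions of chicken lung chromatin were at least 3-fold more accessible in mesenchymal nuclei than in all other nuclei of the same library, out of 67367 distal regions that could have been chosen. These regions are peaks of the deposited ATAC list, which counts insertions into open chromatin, and the list holds 87491 peaks in all. A peak was eligible when it had no promoter row, had a distal row within 50000 bp of a gene, and had at least 50 counts. Mesenchymal nuclei carried at least 5 UMIs of FGF10, EFEMP1, POSTN, COL1A2, BMP5 and TRPC6 together and none of EPCAM, CDH1, PTPRC or KDR. The counts of each side were summed, scaled to CPM (a total of 1000000) and raised by 1 before the ratio was taken. The peaks were thus chosen by the ATAC counts of these nuclei, and every ATAC value given here is a description with no test.

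The mesenchyme of the lung forms its fibroblasts, smooth muscle and pericytes, builds the extracellular matrix and sends signals such as FGF10 to the epithelium that branches into it. Distal open regions lie away from gene starts and are often enhancers, which bind transcription factors and act on genes at a distance. Open distal chromatin tends to differ more between cell types than open promoters do, so sets of this kind are often used as maps of the regulatory DNA of a cell type.

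All samples came from wild-type chicken lung, with 1 library per group and no replicate. The E13 sample was a multiome assay of nuclear RNA and ATAC from the same nuclei, labelled as all lung cells. Its cells were stained, sorted and mixed in about equal parts, so shares of nuclei describe that mix and not the organ. The 2 libraries of embryonic day 20 (E20) held RNA only: 1 is labelled epithelial cells and nuclear RNA, the other all lung cells except immune cells (CD45 negative) and total RNA. The labels name neither the number of embryos pooled nor a sort for mesenchyme.

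Of 8705 E13 barcodes, 7486 had at least 500 genes, and 832 of these (11.1%) were mesenchymal by the rule. They held 4032116 ATAC counts and 2996422 RNA UMIs, against 48884126 and 48708067 in the other 6654 nuclei. The median ATAC depth was 3538.5 counts per mesenchymal nucleus and 3480.5 per other nucleus, while the median RNA depth was 3060.5 and 4711.5 UMIs. Mitochondrial UMIs took a median of 32.2% and 43.9%, and their part in the results was not tested beyond the limit at 40% given with the alternatives. The E20 libraries shared 106 barcodes with each other and none with E13, and values without them are given beside the E20 results. The library labelled epithelial cells held 819 of 6021 kept cells (13.6%) that met the mesenchymal rule, and the CD45-negative library held 936 of 2787.

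The mesenchymal nuclei carried the genes their name calls for. Of 17 mesenchymal markers, 16 were at least 2-fold higher in RNA CPM (UMIs scaled to the total UMIs of the class) than in nuclei of the epithelial, endothelial and immune classes. The exception was FOXF1, a forkhead factor of lung mesenchyme, at 3.34 CPM in mesenchymal and 20.5 CPM in endothelial nuclei. The rule genes are part of this list, and their levels were fixed by the choice of nuclei. Summed over the list, mesenchymal markers reached 8956 CPM in mesenchymal nuclei and 122 to 348 CPM in the 3 other classes. Epithelial markers summed to 581 CPM in mesenchymal and 3323 CPM in epithelial nuclei, with EPCAM, CDH1 and ELF3 of 9 at 0 in the mesenchymal nuclei. The rule itself set EPCAM, CDH1, KDR and PTPRC to 0 there, and these genes also define the other classes. Beyond them, ELF3 and the endothelial gene TIE1 were at 0 among the epithelial, endothelial and immune markers. Endothelial markers summed to 186 CPM there and immune markers to 83.8 CPM. Pericyte and smooth muscle markers summed to 486 CPM, against at most 203 CPM in any other group of nuclei. Of the 5 such genes present, 2 were highest in mesenchymal nuclei by at least 2-fold. The sum of neuronal and glial markers was also highest in the mesenchymal nuclei, at 139 CPM against at most 52.0 CPM. Of these 8 markers, 3 were highest there by at least 2-fold and 3 were at 0 there. Erythroid markers summed to 450 CPM, below the 930 CPM of endothelial nuclei. Mesothelial markers summed to 254 CPM, beside 265 CPM in epithelial nuclei. The part of RNA from these other cell types in the results was not tested.

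By the rule, the peaks of the set were less open in the other nuclei than in the mesenchymal nuclei. The median peak had 69 counts in mesenchymal nuclei (range 18 to 357) and 150 in the other nuclei (28 to 1093), which are 17.1 and 3.07 ATAC CPM. The median ratio was 4.28 and the highest 9.48, and 2736 peaks (40.6%) had a ratio of 3 to below 4. Only 29 peaks reached a ratio of 8. The share chosen was 10.0% of the eligible peaks, while 12234 eligible peaks (18.2%) went the other way by 3-fold or more.

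**Figure D1:**
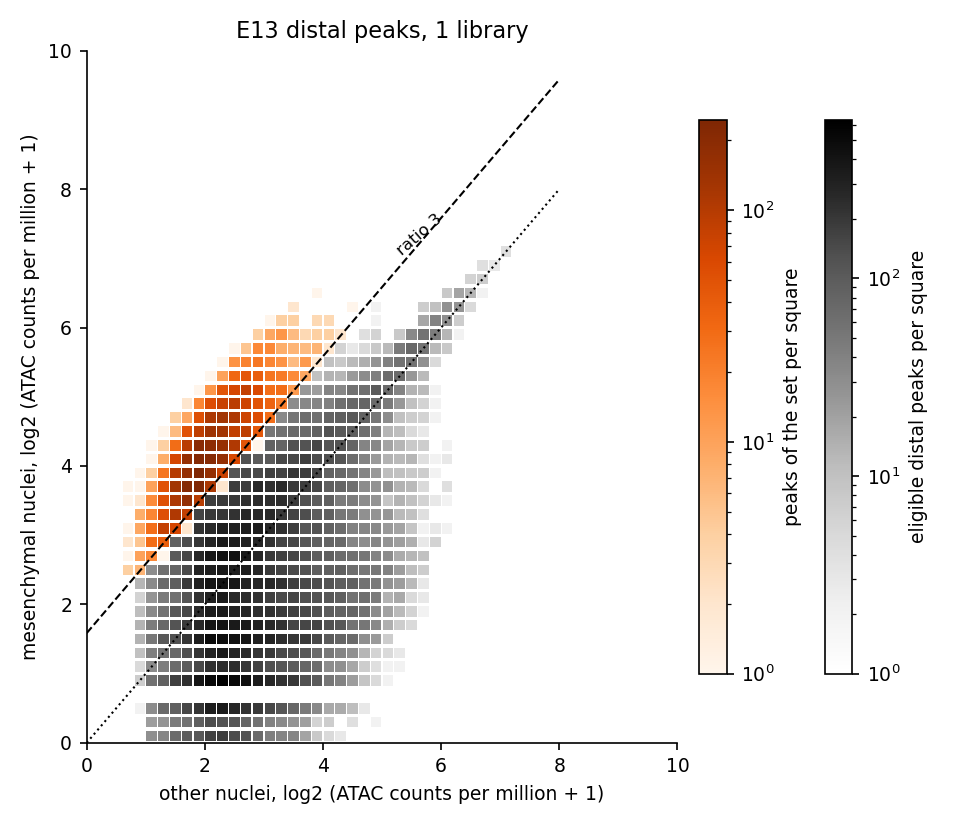
Each square is a range of ATAC levels, log2 of CPM plus 1, in the other nuclei (horizontal axis) and in the 832 mesenchymal nuclei (vertical axis), shaded by the number of eligible distal peaks (grey) or peaks of the set (orange). The 6737 peaks of the set lie above the dashed line at a ratio of 3, and the dotted line marks equal levels.

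The values at the edge of the rule differed little. Just inside lay chr18:5970148-5971043, 1982 bp from the start of MMD, with 88 mesenchymal and 323 other counts and a ratio of 3.00031. Just outside lay chr1:121551767-121552673, in the body of SH3KBP1, with 86 and 315 counts and a ratio of 2.99964. Positions are given as in the deposited peak list, with the first base numbered 1, and the submitters' processing notes list the build galGal6 without saying what it was used for.

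The peak with the highest ratio was chr5:58545944-58546884, 20198 bp upstream of DDHD1, a phospholipase. It had 85 counts in mesenchymal nuclei, 21.1 CPM (95% interval 16.8 to 26.1), and 65 in all other nuclei, 1.33 CPM (1.03 to 1.69). Intervals here are exact Poisson intervals and cover counting error only. It had 11 counts in epithelial nuclei and none in endothelial or immune nuclei. Its nearest gene did not follow it in RNA: DDHD1 was at 25.7 CPM in mesenchymal and 75.6 CPM in other nuclei.

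Next in ratio came chr13:16937516-16938447, 5275 bp upstream of FSTL4, a gene of the follistatin-like family, with 185 and 205 counts and a ratio of 9.03. FSTL4 RNA was 22.4 CPM in mesenchymal and 2.79 CPM in other nuclei. The third, chr6:9249458-9250347, lay 28270 bp downstream of the start of TMEM26 with 102 and 96 counts, and TMEM26 RNA was 24.4 against 6.20 CPM. Here the peak and the RNA were high on the same side.

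The peaks with the most mesenchymal counts also differed in this respect. The peak chr6:14906736-14907657 had 357 mesenchymal counts, 88.5 CPM (79.6 to 98.2), against 652 other counts, 13.3 CPM. It lay in the body of LRMDA, a gene of melanocyte differentiation in mammals, whose RNA was 24.4 CPM in mesenchymal and 227 CPM in other nuclei. The peak and the RNA of the gene that holds it were thus high on opposite sides.

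The peak chr3:81617699-81618554 in the body of KCNQ5, a voltage-gated potassium channel, had 332 and 478 counts and a ratio of 7.73. The peak chr1:65060082-65060977 in the body of PDE3A, a phosphodiesterase that degrades cyclic nucleotides, had 308 and 482 counts and a ratio of 7.13. KCNQ5 RNA was 948 against 87.3 CPM and PDE3A RNA 350 against 34.5 CPM. In these 2 genes peak and RNA were high together. The peak chr4:85329605-85330514, 15438 bp from the start of the basic helix-loop-helix gene ATOH8, had 302 mesenchymal and 1093 other counts. It was the most shared of the 10 with the most counts, with 413 counts in epithelial nuclei and a ratio of 3.25.

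The set took 13.1% of all ATAC counts of the mesenchymal nuclei (exact binomial interval 13.08 to 13.15%) and 2.41% of those of the other nuclei. Part of this gap follows from the choice of the peaks. By class, the share was 0.960% in 2038 epithelial nuclei, 2.86% in 70 endothelial nuclei and 2.08% in 125 immune nuclei. The remaining 4421 nuclei, which met no class rule, held 3.85%. Epithelial nuclei thus had the lowest share.

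The share followed the UMIs of the 6 genes below the threshold that defined the mesenchymal nuclei. Among nuclei with none of the 4 excluded genes, it was 2.11% at 0 UMIs, 5.0% at 1, 9.76% at 2, 10.8% at 3 and 12.6% at 4. From 5 to 6 UMIs upward it lay between 12.6% and 13.7%, with no further order. The 373 nuclei with 2 to 4 UMIs were counted on the other side of the ratio, although 10.9% of their ATAC counts lay in the set. Another 557 nuclei had at least 5 UMIs but also a UMI of an excluded gene, and their share was 7.15%. The 832 nuclei held 50.6% of the UMIs of the 6 genes in kept nuclei, so the side called other contains nuclei with mesenchymal RNA.

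**Figure D2:**
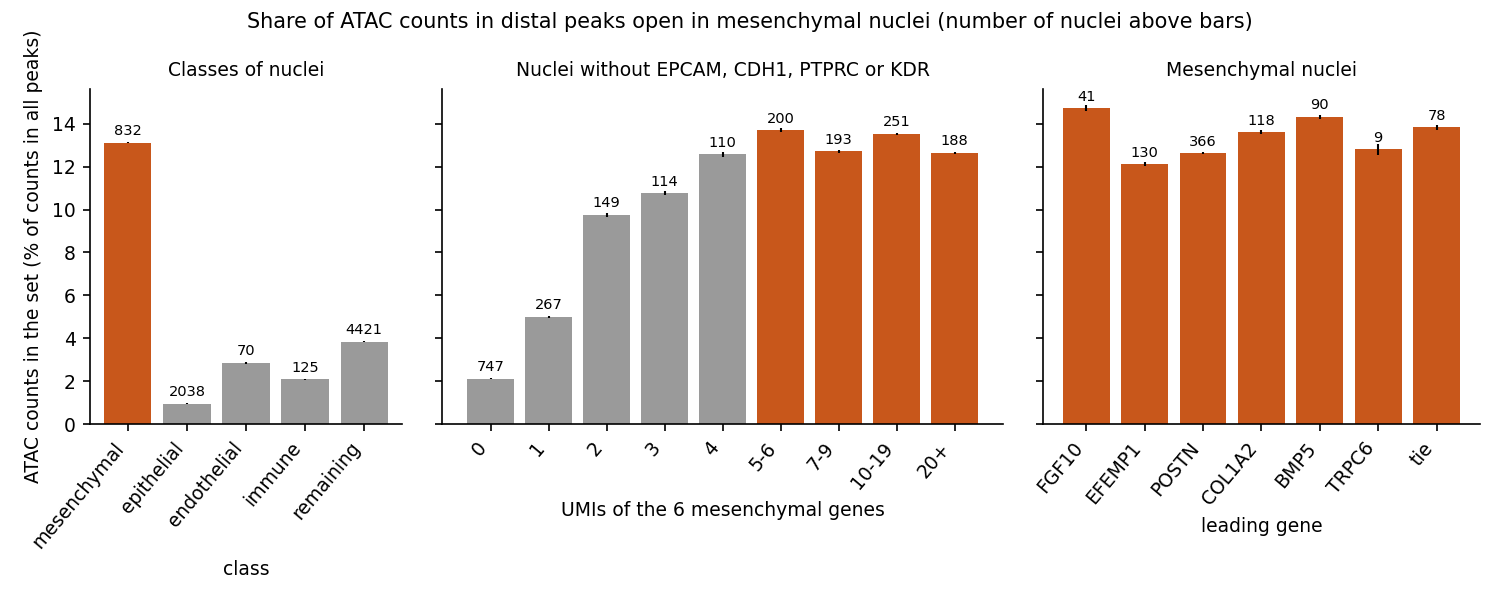
Bars give the percent of ATAC counts that fell in the set, by class of nuclei (left), by UMIs of the 6 genes in nuclei with none of the excluded genes (middle) and by the gene that leads in mesenchymal nuclei (right), with exact 95% binomial intervals for counting error and the number of nuclei above. Orange bars are mesenchymal nuclei. The share rises from 2.11% at 0 UMIs to 12.6% at 4 UMIs and lies between 12.1% and 14.7% whichever gene leads.

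The share of counts in the set was similar in mesenchymal nuclei led by different genes. The peaks were chosen on the summed counts of these same nuclei, so a high share in each group follows in part from that choice. Nuclei led by EFEMP1, a fibulin of elastic tissue, had 12.1% of their counts in the set, those led by the matrix protein gene POSTN 12.6% and those led by the channel gene TRPC6 12.8%. Nuclei led by the collagen gene COL1A2 had 13.6%, those led by BMP5 14.3% and those led by FGF10 14.7%. The groups hold 9 (TRPC6) to 366 (POSTN) nuclei of 1 library, and the intervals cover counting error only.

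The rule genes had peaks in the set, and some of these differed between the kinds of mesenchymal nuclei. FGF10, the fibroblast growth factor that drives branching, had 3 of its 6 eligible peaks in the set, side by side 19108 to 21909 bp from its start. These were chrZ:14009519-14010440, chrZ:14011360-14012247 and chrZ:14012392-14013241, with 77, 98 and 73 mesenchymal counts against 128, 203 and 143. None of the 3 had a count in endothelial or immune nuclei. In nuclei led by FGF10 they summed to 82.3 CPM (48.8 to 130), in nuclei led by COL1A2 to 96.9 CPM (73.0 to 126) and in nuclei led by POSTN to 44.1 CPM (34.5 to 55.5). The intervals of the first and the last of these overlap.

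POSTN had 3 of 5 eligible peaks in the set, 776, 42306 and 49515 bp from its start. Summed, they reached 68.5 CPM (56.4 to 82.5) in nuclei led by POSTN and 25.8 to 37.5 CPM in nuclei led by FGF10, EFEMP1, COL1A2 or BMP5. The interval of the POSTN-led nuclei overlapped that of the FGF10-led nuclei, 15.8 to 72.1, and lay above those of EFEMP1, COL1A2 and BMP5. The 9 nuclei led by TRPC6 had 6 counts there, 87.7 CPM (32.2 to 191). The TRPC6 peak, chr1:184357009-184357924, lay 4771 bp upstream. On 4 counts, it stood at 58.5 CPM (15.9 to 150) in the nuclei led by TRPC6 itself. It stood at 33.8 CPM (19.7 to 54.1) in BMP5-led nuclei and at 6.12 CPM (2.93 to 11.3) in POSTN-led nuclei. COL1A2 had 1 peak in the set, 17499 bp upstream, at 42.3 CPM (27.1 to 62.9) in COL1A2-led nuclei and 24.5 CPM (17.5 to 33.3) in POSTN-led nuclei. For COL1A2, EFEMP1 and BMP5 the intervals of all kinds of nuclei overlapped. EFEMP1 had 3 of 7, at 42.0 CPM (27.9 to 60.7) in EFEMP1-led and 40.5 CPM (25.7 to 60.8) in COL1A2-led nuclei, with POSTN-led nuclei between them. BMP5 had 1 of 6, at 15.9 CPM (6.86 to 31.3) in BMP5-led, 15.9 CPM in COL1A2-led and 9.18 CPM (5.14 to 15.1) in POSTN-led nuclei.

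Against each class taken alone, the peaks of the set kept their direction in most cases. The classes are parts of the other side that the rule used, so this follows in part from the choice of the peaks. The median fold was 8.25 over epithelial nuclei, where 6733 of 6737 peaks were at least 3-fold lower. Among these 6733 were the 4 peaks with no count in epithelial nuclei. Over endothelial nuclei the median fold was 9.73 and over immune nuclei 9.93, on counts so few that 3550 and 3448 peaks were at 0. With 473839 endothelial counts in all, a peak at 0 could still be as high as 6.33 CPM, and 39.6% of the other eligible peaks were at 0 there too. Over the remaining nuclei the median fold was 2.97, and 48.1% of the peaks were at least 3-fold lower there. For the other eligible peaks, the median log2 ratio of mesenchymal over class was -0.45 for epithelial and -0.38 for remaining nuclei. It was 0.44 for endothelial and 0.49 for immune nuclei.

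By CPM, a minority of the set was at least as high in endothelial or immune nuclei, on few counts. In endothelial nuclei 343 of the 6737 peaks were at or above the mesenchymal level, and in immune nuclei 182. The same count was not made for the other eligible peaks, so these numbers have no base to be read against. They also take no account of counting error, and 3 counts are 6.33 CPM in endothelial and 4.56 CPM in immune nuclei. A peak in the body of CCND2, a cyclin of the G1 phase, had 48 endothelial counts, 101 CPM, against 35.2 CPM in mesenchymal nuclei. A peak 1418 bp upstream of BIRC3, an inhibitor of apoptosis, stood at 62.3 CPM in immune and 23.6 CPM in mesenchymal nuclei. Endothelial and immune nuclei are 70 and 125 of the 6654 nuclei on the other side of the ratio.

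The peaks of the set lay farther from gene starts than the other eligible distal peaks. Their median distance to the nearest start was 14672 bp, against 10187 bp for the other 60630. Within 2000 bp of a start lay 5.79% of the set and 11.7% of the others, and at 20000 to 50000 bp 32.5% and 24.4%. Upstream peaks made up 43.5% and 41.3%, and 24.8% and 21.8% had a row in a gene body. The median width did not separate them, at 871 and 868 bp.

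They also came in groups along the chromosome. Of the set, 70.8% had another member within 50000 bp. This share depends on how many peaks a set holds, and it was 98.8% for the 60630 other eligible peaks among themselves. When the next eligible peak lay within 1000 bp, it was in the set in 33.8% of cases after a member and in 6.49% of cases after another peak. At gaps of 20000 to 50000 bp the values were 16.9% and 9.14%. Runs of 5 or more members, each within 50000 bp of the next, numbered 260 and held 1735 peaks. The other eligible peaks formed 2036 such runs with 56850 peaks, so a count of runs does not by itself show grouping.

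**Figure D3:**
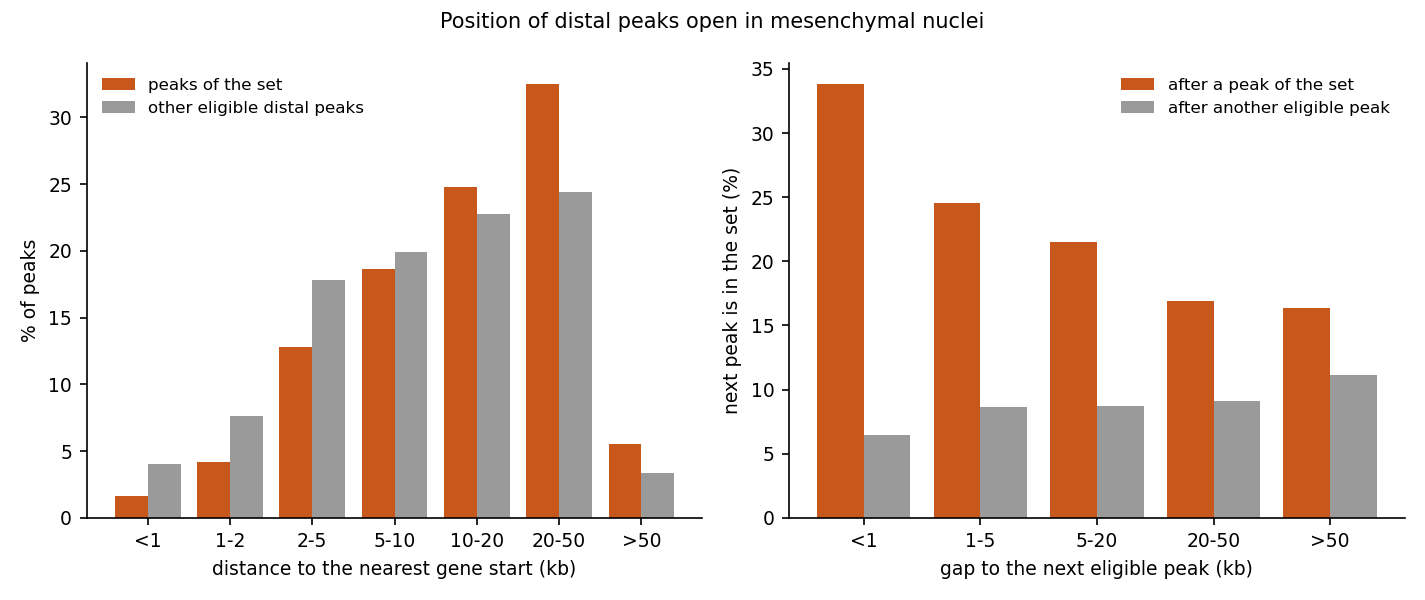
The left panel gives the percent of peaks of the set (orange) and of other eligible distal peaks (grey) by distance to the nearest gene start in kb. The right panel gives how often the next eligible peak along the chromosome is in the set, by the gap to it, after a peak of the set and after another peak: 33.8% against 6.49% below 1 kb.

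The longest runs held both known mesenchymal genes and genes with little RNA. The genes named here were taken from the runs after their values were seen. On chr1:194627574-194956879, 19 of 42 eligible peaks were in the set, around ACER3, CAPN5, TSKU and MYO7A. RNA of TSKU, a secreted modulator of several signalling pathways, was 27.0 against 3.72 CPM and that of the myosin gene MYO7A 80.4 against 7.29 CPM, whereas ACER3, a ceramidase, stood at 84.4 and 98.9 CPM. The run thus spans genes of both kinds.

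On chr3:56356074-56520330, 16 of 23 peaks were in the set, in a stretch linked to TCF21, a basic helix-loop-helix factor of lung mesenchyme, to EYA4, a transcriptional coactivator, and to 3 unnamed genes. TCF21 and EYA4 had 2 peaks of the set each, while ENSGALG00000049100, ENSGALG00000049196 and ENSGALG00000048790 had 6, 4 and 3 and stood at 6.67 CPM or less in mesenchymal RNA. RNA of TCF21 was 128 against 14.4 CPM and that of EYA4 199 against 15.3 CPM. All 11 eligible peaks of chr9:8270397-8328062 near the potassium channel subunit gene KCNE4 were in the set, but KCNE4 itself was at 3.0 CPM in mesenchymal and 0.390 CPM in other nuclei. KCNE4 had 4 peaks of the set, and the unnamed ENSGALG00000048966 had 7 and stood at 1.0 CPM in mesenchymal nuclei. Near PCDH18, a protocadherin, 11 of 14 peaks were in the set. PCDH18 had 1 peak of the set and RNA at 142 against 11.8 CPM. The unnamed ENSGALG00000034709 had 11 and stood at 4.67 CPM in mesenchymal nuclei. Near CCBE1, a secreted factor of lymphatic growth, 11 of 15 were in the set. CCBE1 had 5, with RNA at 47.1 against 3.26 CPM, and the unnamed ENSGALG00000052480 had 6, at 0 CPM in mesenchymal nuclei. Runs therefore occurred beside genes high in mesenchymal RNA and beside KCNE4, which was low on both sides. In the runs at TCF21, KCNE4, PCDH18 and CCBE1, unnamed genes with little RNA had more peaks of the set than the named genes.

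The annotation linked 6719 of the 6737 peaks to 4711 genes, of which 2982 had 1 peak, 1729 had more and 198 had at least 5. A link is a row of the annotation, by gene body or nearest start, and not evidence that the peak acts on the gene. RNA did not choose the peaks, but at E13 it comes from the same nuclei and the 10 genes of the rule were left out of medians and counts. Of the 4711 genes, 1868 reached 20 CPM on the higher side at E13. A gene that passed only on its high side had to differ, so values without the filter are given too.

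At E13 the linked genes were higher in mesenchymal RNA than genes at large. Their median log2 ratio was 0.43 (1868 genes), against 0.18 for all 5896 genes tested and 0.10 for 3303 genes with eligible peaks but none in the set. At least 2-fold higher were 609 of them (32.6%), where 16.2% of all genes tested and 9.08% of genes with none in the set were. At least 2-fold lower were 128 (6.85%), against 9.04% of all. Without the filter the medians were 0.22 for 4232 linked genes and -0.03 for all genes. Leaving mitochondrial, ribosomal protein and haemoglobin genes out of the totals moved the median of all genes from 0.18 to -0.16, so the levels below are also given as relative log2 ratios, the log2 ratio minus the median of all genes tested.

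The RNA ratio rose with the number of peaks. The relative median at E13 was 0.09 for genes with 1 peak of the set, 0.35 with 2, 0.86 with 3 to 4, 1.35 with 5 to 7 and 1.59 with 8 or more. By share, among genes with at least 5 eligible peaks, it was -0.27 where none were in the set, -0.29 below 10%, 0.18 at 10 to 25%, 1.31 at 25 to 50% and 1.99 at 50% or more. At E13 the median was thus no higher below 10% than with none, but a share below 10% needs more than 10 eligible peaks. Genes with none in the set stood at -0.41 with 8 to 14 eligible peaks and at -0.63 with 15 or more. At E20 the values with none and below 10% were -0.07 and 0.19 in the CD45-negative library, and -0.10 and 0.12 in the epithelial library. Without the filter on low values, a setting added after seeing the data, the relative medians at E13 were 0.15, 0.29, 0.62, 1.20 and 1.58 by number of peaks. By share they were -0.06, -0.08, 0.23, 0.54 and 0.90, which is less than with the filter from 25% upward. Genes with more eligible peaks have more chances of a peak in the set, so genes were also compared at like numbers of peaks. Among genes with 8 to 14 eligible peaks, 33.2% of those with a peak in the set were 2-fold higher and 7.68% of those with none. With 1 to 3 eligible peaks the values were 31.0% and 9.76%.

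Read the other way, 73.8% of 443 genes at least 4-fold higher in mesenchymal RNA had a peak in the set. The share was 30.1% of 3753 genes within 2-fold and 25.1% of 509 genes 2-fold lower. Across 2738 genes with at least 5 eligible peaks, the share of peaks in the set and the log2 ratio had a Pearson correlation of 0.48 and a Spearman correlation of 0.45. This correlation is across genes of 1 library, which share neighbouring peaks and depth.

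The rise of RNA with the number of peaks was also present in the E20 libraries, which the rule did not use. In the CD45-negative library the median log2 ratio was 1.14 for 1522 linked genes, 0.80 for all 6234 tested and 0.75 for 3506 genes with no peak in the set. At least 2-fold higher were 55.4% of the linked genes and 39.5% of all, and 2-fold lower 5.65% and 6.29%. In the epithelial library the medians were 0.66 for 1485 linked genes, 0.29 for all 6176 and 0.24 for 3526 with none, and 38.9% of the linked genes and 19.4% of all were 2-fold higher. At least 2-fold lower were 5.32% of the linked genes and 8.91% of all.

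The other cells of the CD45-negative library carried much haemoglobin RNA, which is part of the total that sets their CPM. Haemoglobin genes took 43.3% of UMIs in its other cells and 2.74% in its mesenchymal cells, and 8.52% and 0.711% in the epithelial library. Without the 1120 cells in which haemoglobin genes took at least 5% of UMIs, the CD45-negative medians were 0.18 for linked genes and -0.03 for all genes, and 29.8% and 14.7% were 2-fold higher. Without the 105 kept barcodes shared with the other library they were 0.82 and 0.50, with 44.0% and 26.9% higher. The median of linked genes thus stayed above that of all genes while both levels moved. In the epithelial library 9 shared barcodes were kept, and without them 38.9% of linked genes and 19.4% of all genes were still 2-fold higher.

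Relative to all genes, linked genes stood 0.33 higher in the CD45-negative library and 0.36 higher in the epithelial library, beside 0.25 at E13. With 8 or more peaks of the set the relative medians were 1.94 over 20 genes and 2.25 over 20 genes. Where at least 50% of the eligible peaks were in the set, they were 2.40 over 52 genes and 2.78 over 45 genes. Without the filter on low values these relative medians were lower. With 8 or more peaks they were 1.26 and 1.44, over 33 genes each. At a share of 50% or more they were 1.01 over 129 genes and 1.11 over 134 genes. The E20 libraries differ from E13 in stage, sort and RNA type as labelled, and these cannot be told apart.

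**Figure D4:**
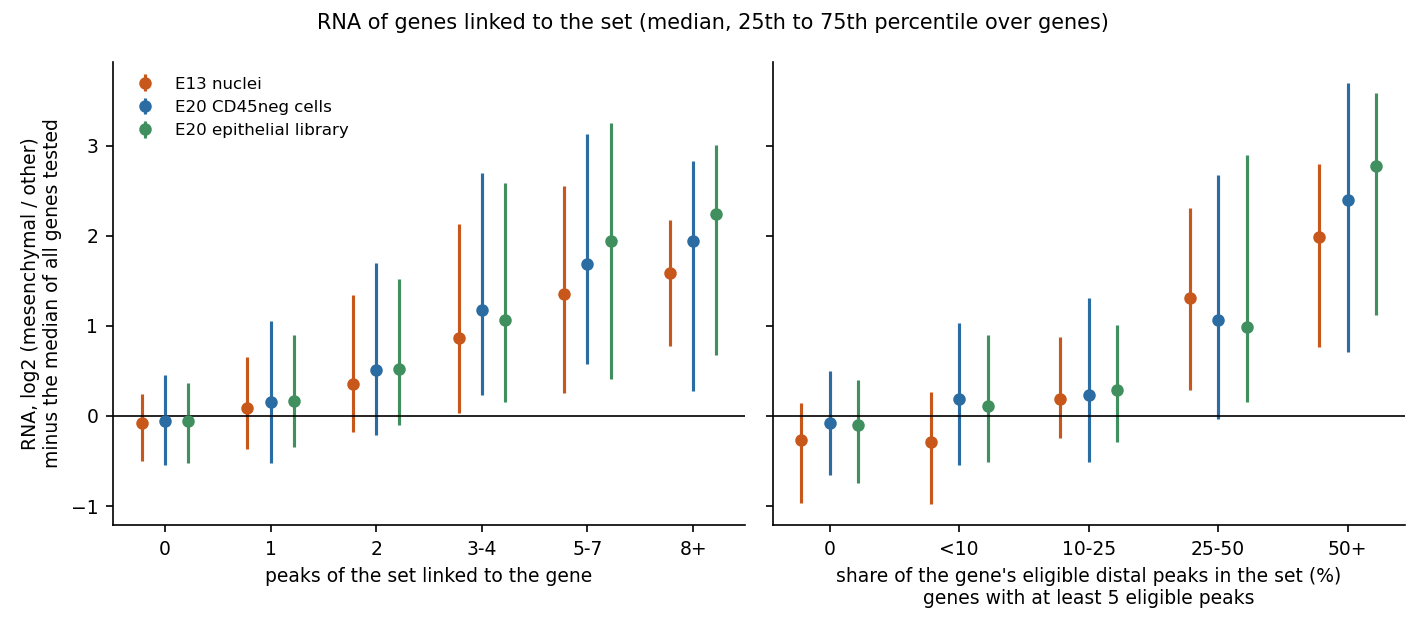
Points give the median, and lines the 25th to 75th percentile over genes, of the log2 RNA ratio of mesenchymal over other cells minus the median of all genes tested, by number of peaks of the set linked to a gene (left) and by the share of its eligible peaks in the set (right). In each of the 3 libraries the median is near 0 with no peak and between 1.59 and 2.25 with 8 or more. Only genes that reached 20 CPM on the higher side are included.

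Promoter peaks were not in the set, and few of them showed the same contrast. Of 13984 promoter peaks over the count minimum, 286 (2.05%) had a ratio of at least 3, against 10.0% of the eligible distal peaks. At least 3-fold the other way were 745 (5.33%), against 18.2%. Summed per gene, the promoter ratio was at least 2 for 236 of 2895 genes linked to the set (8.15%), against 4.19% of all genes with a promoter peak. It reached 2 for 21 of 132 genes (15.9%) with 5 or more peaks of the set. This uses the same nuclei and the same contrast as the rule, so it is a description. Single genes with a high promoter ratio were TCF21 at 5.46, the collagen genes COL3A1 at 5.05 and COL1A1 at 4.84, and LOX, which crosslinks collagen and elastin, at 4.21.

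The genes with the most peaks of the set differed in how many eligible peaks they had. AUTS2, a chromatin regulator, had 18 of 68 eligible peaks in the set, the axon guidance ligand gene SLIT3 16 of 42, and RAD51B, a DNA repair gene, 13 of 78. The kinase gene FYN had 12 of 18, and KCNQ5, GLI2 and DLC1 had 11 of 14, 11 of 26 and 11 of 25. The share in the set therefore ran from 16.7% for RAD51B to 78.6% for KCNQ5.

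RNA of these genes was not uniform. SLIT3 stood at 1488 CPM in mesenchymal nuclei (1445 to 1533) and 255 CPM in the others, a relative log2 ratio of 2.36. DLC1 stood at 569 and 46.9 CPM, KCNQ5 at 948 and 87.3 CPM and FYN at 163 and 39.4 CPM, with relative log2 ratios of 3.39, 3.24 and 1.83. RAD51B, with 13 peaks, was at 187 and 210 CPM at E13, a relative log2 ratio of -0.35, and reached 2.78 in the CD45-negative library. Many peaks in the set did not therefore always go with high mesenchymal RNA at E13.

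ADGRL4, an adhesion receptor of endothelium, had 11 of 19 eligible peaks in the set. Its RNA was 15.02 CPM in mesenchymal, 11.9 CPM in other and 277 CPM in endothelial nuclei. In the CD45-negative library it stood at 4.23 CPM in mesenchymal and 49.8 CPM in other cells. Its 11 peaks had 19 endothelial counts in all, and none of them was above 12.7 CPM in endothelial nuclei. The class with the highest ADGRL4 RNA was thus not the class in which these 11 peaks were most open. The rule chose them as more open in mesenchymal than in other nuclei, and the eligible peaks of ADGRL4 outside the set are not described by class here. On chr8:18868604-19016283, a run with 13 of 20 peaks in the set was linked to both ADGRL4 and VTG1. VTG1 had 5 of 12 eligible peaks in the set and RNA at 63.4 against 6.88 CPM at E13. ENSGALG00000034709, an unnamed gene beside PCDH18, had 11 of 16 eligible peaks in the set and 4.67 CPM in mesenchymal nuclei.

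Gene lists of 4 kinds were then read against the set. For all genes, 26.8% of 17564 with eligible peaks had at least 1 in the set, and 10.1% of links were to the set. Of mesenchymal transcription factors 32 of 56 had a peak in the set, of ligands, receptors and modulators 47 of 81, of extracellular matrix genes 34 of 44 and of contractile genes 13 of 20. By links the shares were 14.4%, 14.3%, 26.4% and 25.3%. The lists differ in numbers of eligible peaks per gene, and they were chosen with earlier results in view, so no test was made.

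Among the transcription factors, GLI2, which carries the response to hedgehog signals, had 11 peaks in the set. Its peak with the highest ratio, chr7:25803286-25804149, lay 23417 bp from the start and had 128 counts against 212, with none in endothelial nuclei. GLI2 RNA was 267 against 28.6 CPM at E13, a log2 ratio of 3.18, and its relative log2 ratios at E20 were 3.20 and 3.75. GLI3, its relative, had 2 of 11 peaks in the set and a relative log2 ratio of 1.14. For both genes peaks and RNA were higher in mesenchymal nuclei.

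TBX4 and TBX5, T-box genes of lung mesenchyme, had peaks of the set within 8029 bp of their starts. TBX4 had 2 of 6 in the set, chr19:7750329-7751246 and chr19:7752899-7753730, 8029 and 5545 bp from the start. The second of these had 252 mesenchymal counts, 62.5 CPM, against 8.45 CPM in other and 2.77 CPM in epithelial nuclei. TBX4 RNA was 184 against 17.5 CPM, a relative log2 ratio of 3.13. TBX5 had both of its eligible peaks in the set, 5082 bp upstream and 4257 bp downstream of the start, with RNA at 13.3 against 1.58 CPM, below the minimum of 20 CPM. TBX3, a relative, had 3 of 13, with 68.4 against 13.8 CPM.

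Basic helix-loop-helix and other mesenchymal factors were alike in this respect. TCF21 had peaks 5917 bp downstream and 6065 bp upstream of its start with 29 and 72 mesenchymal counts. TWIST2 had 3 of 6 peaks in the set and RNA at 79.1 against 8.03 CPM, and TWIST1 had 1 of 2 and 36.7 against 2.11 CPM. MEIS1, a homeobox cofactor, had 3 of 15 and 626 against 69.0 CPM, and TSHZ2, a zinc finger factor, 5 of 20 and 484 against 49.6 CPM. All 4 RNA ratios were 2.97 to 3.41 on the relative log2 scale.

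Other factors had peaks in the set without higher RNA at E13. FOXP2, a forkhead gene of distal lung epithelium, had 1 of 4, chr1:26089789-26090708, with 72 mesenchymal counts, 104 other counts and 1.14 CPM in epithelial nuclei. Its RNA was 39.7 CPM in mesenchymal and 204 CPM in epithelial nuclei. RUNX1, a gene of blood cells, had 2 of 17 peaks in the set and 13.7 CPM against 359 CPM in immune nuclei. SOX6 had 2 of 16 and stood at 37.4 against 66.9 CPM.

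Among the 29 factors with a peak in the set that passed the filter, 17 were at least 2-fold higher at E13. The share of all genes tested was 16.2%. At least 2-fold lower were 2, FOXP2 and RUNX1, beside 9.04% of all genes tested, and the median log2 ratio was 2.23. The 13 factors of the list with no peak in the set had a median of 2.60. Factors with a peak in the set thus did not have the higher median within their list. At E20, in the CD45-negative library, 18 of 24 were 2-fold higher and 2 lower, with a median of 2.42. Of all genes tested there, 39.5% were higher and 6.29% lower, with a median of 0.80. Without cells rich in haemoglobin 13 of 23 were higher and the median was 1.33, where 14.7% of all genes were higher. Factors of the list with no peak in the set had a median of 3.68 over 9 genes in the full CD45-negative library. In the epithelial library the medians were 1.88 with a peak and 3.52 over 9 genes with none.

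Among ligands, SLIT3 had the peak with the highest ratio of its gene at chr13:5260951-5261845 in its body, with 193 counts against 257 and 0.799 CPM in epithelial nuclei. PDGFD, a platelet-derived growth factor, had all 6 of its eligible peaks in the set, with 46 to 103 mesenchymal counts. Of these, 1 lay 3853 bp upstream and 5 lay 34701 to 47805 bp downstream of the start. Its RNA was 283 against 29.6 CPM. VEGFD, a growth factor for lymphatic vessels, had 3 of 6, all upstream within 14381 bp, and RNA at 142 against 11.1 CPM. TGFB3 had 5 of 11 and RNA at 242 against 30.7 CPM.

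The fibroblast growth factor gene FGF7 had 2 of 5 eligible peaks in the set, 435 bp downstream and 39743 bp upstream of its start, with 86 and 77 mesenchymal counts. Its RNA was 35.4 against 3.72 CPM. WNT2B had 1 of 4 and 41.7 against 3.65 CPM, and SFRP2, an inhibitor of Wnt signals, had its only eligible peak in the set and 93.4 against 12.5 CPM. These 3 genes were higher in mesenchymal RNA in each of the 3 libraries, with relative log2 ratios from 2.28 to 4.51, although FGF7 was below 20 CPM on both sides at E20.

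Among receptors, RARB, a retinoic acid receptor, had 6 of 47 eligible peaks in the set and 696 against 183 CPM. ROBO1, a receptor for Slit proteins, had 3 of 15 and 544 against 80.8 CPM, but its relative ROBO2 had 2 of 14 and stood at 165 against 423 CPM. The semaphorin gene SEMA3E, a guidance ligand, had 2 of 10 and 48.1 against 236 CPM. In epithelial nuclei ROBO2 stood at 495 CPM and SEMA3E at 269 CPM, above the mesenchymal level.

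In this list 21 of the 35 genes with a peak that passed the filter at E13 were at least 2-fold higher, beside 16.2% of all genes tested. Lower were 2, ROBO2 and SEMA3E, beside 9.04% of all genes tested, and the median log2 ratio was 1.49. The 20 genes of the list with no peak in the set had a median of 1.04. Among CD45-negative cells 23 of 30 were higher and 3 lower, with a median of 3.46 against 3.26 for genes with none. Of all genes tested there, 39.5% were higher and 6.29% lower. With no filter on low values the median of genes with a peak was 2.10 over 45 genes, and genes with none are given with the filter only. Without cells rich in haemoglobin 19 of 30 were higher, to be read beside the share of all genes given with the transcription factors. In that setting 5 were lower, and the share of all genes that were lower is not given, so this count has no base. The epithelial library had the opposite order, with a median of 2.95 for genes with a peak and 3.25 for genes with none.

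The extracellular matrix list had the highest share of its links in the set. DCN, the small proteoglycan decorin, had 9 of 17 eligible peaks in the set and RNA at 570 against 67.1 CPM. LAMA4, a laminin chain, had 6 of 8 and 633 against 57.5 CPM, and its peaks chr3:65732388-65733318 and chr3:65735995-65736889 had 120 and 150 mesenchymal counts. COL6A1 had 4 of 5, from 6232 bp upstream to 8142 bp downstream of its start, and 94.8 against 7.72 CPM. COL3A1 had 3 of 7, all in its body, and 1204 against 107 CPM.

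COL1A1, which codes for the main fibrillar collagen chain with COL1A2, had 3 of 8, all within 8355 bp upstream, and RNA at 1516 against 97.4 CPM. Its peak 1730 bp upstream had 153 counts against 362. LOX had 3 of 4 and was at 12.7 against 1.33 CPM at E13, under the filter, and at 37.8 against 1.86 CPM in the CD45-negative library.

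At E13, 27 of the 29 matrix genes that passed the filter were at least 2-fold higher, beside 16.2% of all genes tested. Only 1 was lower, beside 9.04% of all genes tested, and the median log2 ratio of these matrix genes was 2.67. Among CD45-negative cells all 30 that passed were higher, with a median of 4.74, against 39.5% of all genes tested. Without cells rich in haemoglobin 29 of 30 were, and the share of all genes is given with the transcription factors. Matrix genes with no peak in the set had medians of 2.91 over 9 genes and 5.13 over 8 genes, so these too were high. The gene that was lower at E13 was COL8A1, a collagen, with 156 against 558 CPM and 639 CPM in epithelial nuclei. It had 2 of 26 peaks in the set, of which chr1:85498506-85499371 had 105 counts against 130 and 0.505 CPM in epithelial nuclei.

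Contractile genes gave a like picture with fewer members. MYLK, the myosin light chain kinase, had 8 of 19 eligible peaks in the set, with chr7:27255282-27256194 at 194 counts against 289, and RNA at 287 against 67.4 CPM. MYH11, the smooth muscle myosin, had 4 of 6 and 142 against 60.0 CPM, and ACTA2, smooth muscle actin, 3 of 10 and 265 against 35.3 CPM. The ACTA2 peak 1033 bp downstream of the start had 182 counts against 352. At E13, 8 of 12 genes that passed the filter were at least 2-fold higher, beside 16.2% of all genes tested. None of the 12 was 2-fold lower, beside 9.04% of all genes tested, and their median was 1.95. At E20, 10 of 10 in the CD45-negative library were higher, with a median of 3.06, against 39.5% of all genes tested. Without cells rich in haemoglobin 8 of 10 were higher, with a median of 1.90, and the share of all genes is given with the transcription factors. Contractile genes with no peak in the set had medians of 1.87 over 6 genes at E13 and 2.46 over 5 genes in the CD45-negative library. In the epithelial library the medians were 3.13 with a peak and 3.05 over 5 genes with none.

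On the relative scale the medians of the 4 lists at E13 were 2.05 for the factors, 1.31 for the ligands and receptors, 2.49 for the matrix and 1.77 for the contractile genes. In the CD45-negative library they were 1.62, 2.65, 3.94 and 2.25. Over 17 alternative settings at E13 and 8 in each E20 library, the lowest list median relative to all genes was 1.25. Genes with a small ratio changed sign under at least 1 setting, among them TEAD1, VEGFA, IGF1R and LTBP2 at E13, and RUNX1 changed sign under 1 of 17.

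**Figure D5:**
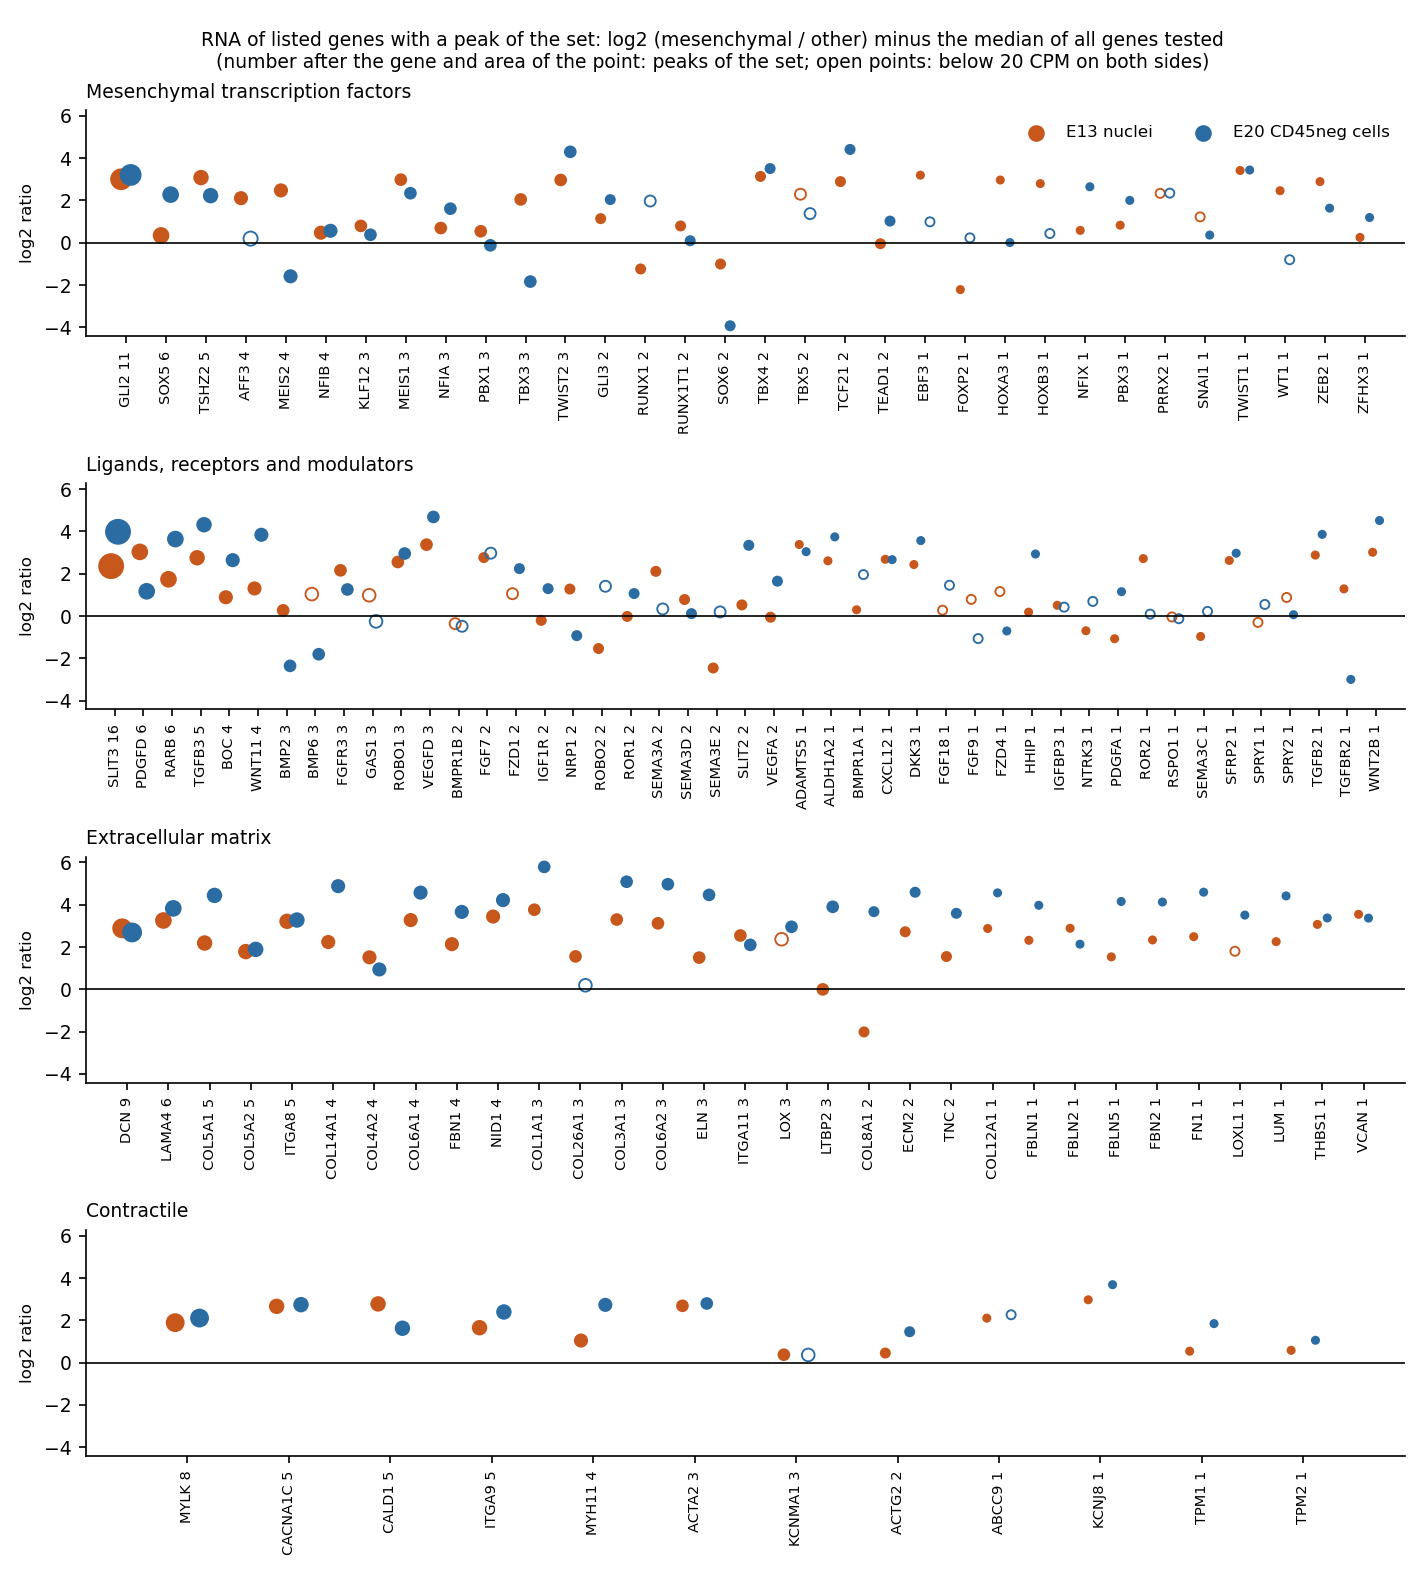
Each point is a listed gene with at least 1 peak of the set, in 4 panels by list. The vertical axis is the log2 RNA ratio of mesenchymal over other cells minus the median of all genes tested, at E13 (orange) and in the E20 CD45-negative library (blue), the number after the name counts its peaks of the set, and open points were below 20 CPM on both sides. Most extracellular matrix genes lie above 1 in both libraries, while FOXP2, SEMA3E and COL8A1 lie below -2 at E13.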

How the data were processed

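The authors deposited raw UMI counts per gene and, for E13, raw ATAC counts per peak, for listed barcodes; per the file headers they came from cellranger-arc 2.0.0 (E13) and cellranger 4.0.0 (E20). The deposited peak annotation gives each peak's distance to a gene, in bases, and its type as promoter, distal or intergenic. Peaks are 1 list for the library. The submitters' processing notes also name Seurat, Signac and galGal6 without their role. Whether reads in introns were counted is not given in the sources used here.

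Counts of kept barcodes (at least 500 genes) were summed per side or class and scaled to CPM, and 1 was added before ratios. RNA was compared for genes of at least 20 CPM on the higher side, 2-fold being the threshold of a call. Classes were taken by marker UMIs, with markers of the other classes absent or nearly so: at least 3 of EPCAM and CDH1 for epithelial, at least 5 of KDR, CDH5, TEK, TIE1 and PECAM1 for endothelial, and at least 5 of PTPRC, CSF1R, IKZF1 and DOCK2 for immune nuclei. CPM refer to UMIs for genes and to ATAC counts for peaks. Distances are signed, with negative values upstream, and rows at 0 in a distal peak were read as gene body. With 1 library per group no test, p-value or standard error was computed, and intervals are exact at 95%. No doublet caller was run, and leaving out the 5% of nuclei with the most UMIs or ATAC counts was an alternative. Genes named are the 10 with the most peaks of the set and listed genes with at least 1 (examples are shown); peaks named are the highest in ratio, the highest in counts, and those nearest the threshold. Genes named in runs, for peaks shared with other classes and for promoter ratios were chosen after their values were seen. The members and lists were chosen with earlier results of these data known. Peak calls at other settings, and sequences of the peaks, were not analysed here. The summing was tested on simulated data. Python 3.11.15, NumPy 2.4.6, SciPy 1.17.1, pandas 2.3.3 and matplotlib 3.10.9 were used.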

Additional observations from a re-analysis of the deposited data

Results flagged for a closer look

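Among listed genes with a peak in the set that reached 20 CPM on the higher side and differed at least 2-fold at both stages, 3 had opposite directions at E13 and E20, and the difference was not tested, since each stage and sort has 1 library. COL8A1, a collagen gene, had a log2 ratio of mesenchymal over other cells of -1.83 at E13, of 4.48 in the CD45-negative library and of 3.52 in the epithelial library. Its RNA in the E13 epithelial nuclei was 639 CPM. TBX3 went from 2.23 at E13 to -1.03 in the CD45-negative library, and TGFBR2, a receptor for transforming growth factor beta, from 1.47 to -2.19. At E13 both were higher still in endothelial nuclei, at 131 and 928 CPM, and the part of endothelial cells in the E20 values was not tested.

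Peaks outside the distance rule also showed the contrast, in both directions. Of distal peaks more than 50000 bp from a gene, 14.4% (835 of 5794) had a ratio of at least 3, and of intergenic peaks 17.6% (25 of 142), against 10.0% of the eligible peaks. At least 3-fold the other way were 21.7% and 22.5%, against 18.2% of the eligible peaks.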

How the results depend on the processing

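Of 124 alternative values, 68 stayed close to the values given and 56 moved. Only the median log2 ratios could turn direction, since peak numbers, shares and distances cannot be negative, and none of these medians did. Close means within 1.5 times for a number of peaks, and within an exact 95% interval of the value given for a median or a share. The set held 11337 peaks at a ratio of 2 and 4001 at a ratio of 4, and 5043 to 8737 under 18 other settings, of which the comparison with nuclei at 0 UMIs of the 6 genes was added after seeing the data; with at most 40% mitochondrial UMIs, 4790 peaks (71.1% of the set) were shared. The figures that follow are the median log2 ratio of linked genes and the percent at least 2-fold higher. At E13 they were 0.34 and 28.3% at a ratio of 2, 0.53 and 37.1% at a ratio of 4, 0.24 and 29.7% with at most 40% mitochondrial UMIs, 0.22 and 21.9% with no filter on low values, 0.48 and 36.4% at a minimum of 50 CPM, 0.087 and 25.6% with totals without mitochondrial, ribosomal protein and haemoglobin genes, and 0.49 and 35.3% with links to the nearest start only, a setting added after seeing the data. A pseudocount of 5 CPM gave 30.4%.

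Among CD45-negative cells they were 1.02 and 50.6% with a pseudocount of 5 CPM, 0.75 and 40.2% with no filter, 1.23 and 58.1% at 50 CPM, 0.31 and 33.2% with the reduced totals, and 0.22 and 30.9% in cells with at least 1000 genes. With 10 UMIs of the 6 genes 52.1% were higher. Without shared barcodes they were 0.82 and 44.0%, and without cells rich in haemoglobin 0.18 and 29.8%, both added after seeing the data. In the epithelial library they were 0.59 and 35.2% with a pseudocount of 5 CPM, 0.34 and 26.8% with no filter, 0.79 and 43.3% at 50 CPM, 0.52 and 34.4% with the reduced totals, 0.57 and 35.8% with at least 1000 genes, and 0.55 and 35.4% without cells rich in haemoglobin. The levels moved with the median of all genes; the excess over it was 0.16 to 0.35 at E13, 0.19 to 0.41 in the CD45-negative library and 0.23 to 0.50 in the epithelial library. Causes of single shifts were not tested.

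Peaks with another member near were 57.8% at a ratio of 4 and 52.0% within 20000 bp. With at least 5 UMIs of the leading gene, the share of counts in the set was 14.4% for FGF10, 13.5% for EFEMP1, 13.3% for COL1A2, 14.1% for BMP5 and 13.9% for TRPC6. With 2 more UMIs per class it was 12.98% in mesenchymal, 0.918% in epithelial, 2.96% in endothelial, 2.12% in immune and 3.58% in remaining nuclei. The 3 planned settings on the sequence of the peaks (the whole peak, 500 bases, a ratio of 4) were not run, as no genome was used here. No paired analysis was possible because each group has 1 library and no result comes from a test. With 70 endothelial and 125 immune nuclei, low levels in those classes were not detectable at this depth, and no value has a replicate.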
